A study of Mus musculus with 10 samples.

Results

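Endomucin (EMCN) and 9 marker genes of the vessel lining were followed in 10 flank tumours of DAOY, an established human medulloblastoma line. The 10 genes were set by identifier, and all 10 were found among the 33538 human gene identifiers of the count table. EMCN (ENSG00000164035) was selected on its counts in these same libraries, where it was higher with both oils. Its levels in the oils against control are therefore given as a description with no test. The other 9 (PECAM1, CDH5, KDR, TEK, TIE1, VWF, ENG, CLDN5 and ESAM) are textbook endothelial markers, joined to EMCN to see whether it moved with them or alone.

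The grafts grew in female nude mice, which tolerate human grafts for lack of T cells but supply their own blood vessels. All tumours came from mice at 30 days of treatment, and their ages are not given. Control mice (CTRL, 3 libraries) ate ordinary chow. The DHA oil group (DHA-oil, 3 libraries) received docosahexaenoic acid, and the fish oil group (Fish-oil, 4 libraries) is here read as the arm given both it and eicosapentaenoic acid. Every tumour was of the same line and no genetic change separated the groups. The labels do not say which mouse gave which library. The p-values therefore reflect the spread among libraries only, and part of it may be technical.

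Endothelial cells line blood vessels and are held together by junction proteins. Their growth and calm are set by receptors for the VEGF and angiopoietin ligands. EMCN is a sialic acid-rich surface mucin known from capillary and venous endothelium, where it limits the adhesion of leukocytes. In a graft the vessels are formed largely by the host, and the counts are of reads aligned to the human genome. A graft read counted under one of these genes could come from the human cells, or from a mouse transcript similar enough to align. The species of the reads was not tested. In bulk RNA, fewer cells of a type and less RNA per cell cannot be told apart.

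Total counts ran from 6187116 to 10035702 reads per library. The 10 genes together held between 1225 and 2195 reads per library, and 15989 in all. ENG supplied 60.8% of these reads and the EMCN total was 262 reads, so EMCN rests on few reads in each library. Fish oil replicates 2 and 4 stood apart from the other libraries on the first principal component of all genes (-21.4 and -52.9, against -1.71 to 19.1 in the other 8; 26.4% of the variance). Both are kept, and results that rest on them are also given without them.

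EMCN was low in control and higher in both oils. The controls held 12, 7 and 10 EMCN reads, which are levels of 1.27, 0.915 and 1.38 CPM (reads scaled to a common effective library total). The DHA oil libraries stood at 2.72, 3.71 and 4.42 CPM, from 23, 38 and 42 reads. The fish oil libraries stood at 4.48, 1.86, 3.91 and 6.08 CPM, from 28, 18, 30 and 54 reads. Every oil library lay above every control, with fish oil replicate 2 closest to them. Of all genes tested, 0.462% were higher without overlap in both oils together than in control, and the choice of EMCN rests on this pattern.

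Counting error alone is wide at these depths. The 95% Poisson interval of EMCN was 0.663 to 2.54 CPM in control replicate 3, and 1.10 to 2.94 CPM in fish oil replicate 2, so these libraries overlap within counting error. These intervals cover counting error only. The interval of DHA oil replicate 1, the lowest of its group, was 1.72 to 4.08 CPM.

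EMCN averaged 1.19 ± 0.245 CPM (SD, n = 3) in the controls. It averaged 3.62 ± 0.856 CPM (SD, n = 3) with DHA oil and 4.08 ± 1.74 CPM (SD, n = 4) with fish oil. The order of the levels was thus control, DHA oil and fish oil, and the oils did not differ beyond their spread. EMCN was 3.19-fold higher with both oils than in control, a log2 fold change of 1.68 that describes the values by which it was selected. Between the oils, which the choice of EMCN did not compare, the log2 fold change was 0.16 (95% interval -0.58 to 0.89; adjusted p = 0.942 by edgeR's quasi-likelihood test).

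**Figure D1:**
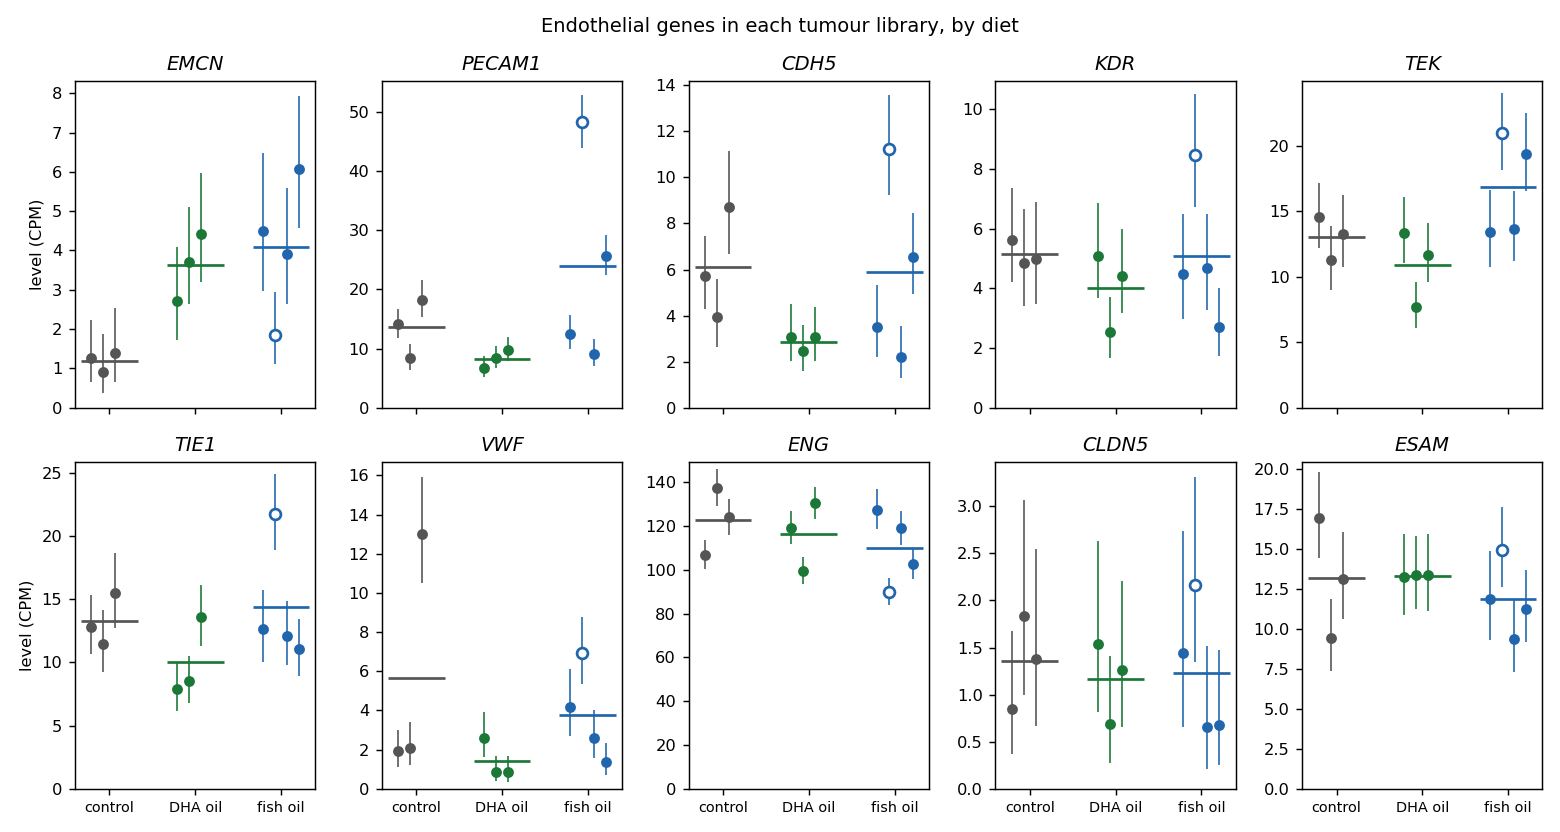
Level in CPM (vertical axes, each from 0) of the 10 genes in every library, by diet; points are libraries with 95% Poisson counting intervals, horizontal lines are group means, and the open circle is fish oil replicate 2. EMCN in the oils lies above all 3 controls, while fish oil replicate 2 is the highest library for 6 of the other 9 genes.

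The question for the other 9 was whether they stood higher with the oils too. None passed the test across all genes. For both oils against control, 0 of the 9 genes was called by edgeR at an adjusted p under 0.05. Of all 16013 genes tested 0.131% were, in either direction. In the higher direction 0 of all genes were called, so this count cannot set the 9 apart from other genes. At an unadjusted p under 0.05 there was 1 of the 9, VWF, beside 2.62% of all genes. DESeq2 called 0 of the 9, beside 0.169% of all genes, and limma-voom called 0, beside 0.00624%. With no filter on low counts edgeR also called 0 of the 9, beside 0.292% of all genes. Of the other 9 genes 2 had a positive and 7 a negative log2 fold change, with a median of -0.14. Without fish oil replicate 2, 0 were positive and the median was -0.28. Without fish oil replicates 2 and 4, 0 were positive and it was -0.27. Over all genes and all 10 libraries the median was 0.0016 and 50.4% were positive.

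The junction genes come first. PECAM1 (ENSG00000261371) encodes the adhesion receptor CD31 at endothelial contacts, and is also made by platelets and leukocytes. Its levels were 14.1, 8.36 and 18.3 CPM in control, 6.74, 8.41 and 9.69 CPM in DHA oil and 12.5, 48.2, 9.12 and 25.7 CPM in fish oil. Fish oil replicates 2 and 4 were the highest of all libraries, and the groups overlapped in every pairing. The log2 fold change of PECAM1 for both oils against control was 0.062 (95% interval -0.80 to 0.92), and it was -0.24 without fish oil replicate 2.

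CDH5 (ENSG00000179776) encodes VE-cadherin, the cadherin of endothelial adherens junctions. Its levels were 5.73, 3.92 and 8.71 CPM in control, 3.07, 2.44 and 3.05 CPM in DHA oil and 3.52, 11.2, 2.21 and 6.53 CPM in fish oil. All 3 DHA oil libraries lay below all 3 controls, and fish oil spanned both groups. For both oils against control the log2 fold change of CDH5 was -0.56 (-1.38 to 0.27). It was -1.10 without fish oil replicates 2 and 4, and -0.23 without control replicate 3. It passed the adjusted threshold in none of these (edgeR adjusted p = 1.00, 0.532 and 1.00).

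CLDN5 (ENSG00000184113), a tight junction claudin of the blood-brain barrier, had 5 to 21 reads per library. Its level ranged from 0.651 to 2.17 CPM over all libraries, with fish oil replicate 2 the highest and all diets overlapping. The log2 fold change of CLDN5 for both oils was -0.15 (-1.09 to 0.78), and the sign changed to 0.13 without control replicate 2. ESAM (ENSG00000149564), an adhesion molecule at endothelial tight junctions that platelets also carry, ranged from 9.38 to 17.0 CPM, with overlap in all diets. Its log2 fold change for both oils was -0.070 (-0.48 to 0.34), and 0.16 without control replicate 1.

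None of the receptors separated the oils from control. KDR (ENSG00000128052) encodes VEGF receptor 2, the main signalling receptor for VEGFA in endothelium. Its level was 5.62, 4.84 and 4.98 CPM in control, 5.08, 2.54 and 4.42 CPM in DHA oil and 4.48, 8.46, 4.69 and 2.70 CPM in fish oil. Fish oil held both the highest KDR value, in replicate 2, and one of the lowest, in replicate 4. The log2 fold change for both oils was -0.19 (-0.85 to 0.47).

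TEK (ENSG00000120156) encodes TIE2, the receptor of the angiopoietins, and TIE1 (ENSG00000066056) its partner in the same complex. TEK stood at 14.5, 11.2 and 13.3 CPM in control, 13.36, 7.72 and 11.7 CPM in DHA oil and 13.45, 20.95, 13.7 and 19.4 CPM in fish oil. As with PECAM1, fish oil replicates 2 and 4 held the highest TEK values. TIE1 stood at 12.8, 11.5 and 15.5 CPM in control, 7.92, 8.50 and 13.6 CPM in DHA oil and 12.6, 21.8, 12.1 and 11.0 CPM in fish oil. For TIE1 replicate 2 alone was high among the fish oil libraries. The log2 fold changes for both oils were 0.059 (-0.37 to 0.49) for TEK, which was -0.10 without fish oil replicates 2 and 4, and -0.14 (-0.63 to 0.36) for TIE1.

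ENG (ENSG00000106991) encodes endoglin, a co-receptor for TGF-beta family ligands that is made by endothelium and also by mesenchymal and some tumour cells. It differed from the other markers in how little it varied, from 90.0 to 137.6 CPM over all libraries, a 1.53-fold range. The 9 other genes had ranges from 1.81-fold (ESAM) to 15.4-fold (VWF). ENG also had by far the most reads (9718), and counting error widens the ranges of the other genes more. Set against counting error, the variance of ENG within diets was 19.6-fold, among values from 2.49-fold (CLDN5) to 49.2-fold (PECAM1) in the other genes. The lowest ENG value was in fish oil replicate 2, where 6 other markers were highest. The log2 fold change of ENG for both oils was -0.12 with the narrowest interval of the 10 genes (-0.40 to 0.16).

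VWF (ENSG00000110799) encodes von Willebrand factor, the clotting protein stored in endothelial granules and platelets. Its levels were 1.91, 2.09 and 13.0 CPM in control, 2.60, 0.880 and 0.843 CPM in DHA oil and 4.16, 6.91, 2.61 and 1.35 CPM in fish oil. Control replicate 3 was far above the other controls and set the direction of the comparison. The log2 fold change of VWF for both oils was -1.26 (-2.51 to -0.012), with an adjusted p of 1.00 by edgeR, and 0.21 without control replicate 3.

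Each oil was then set against control singly. For DHA oil against control edgeR called 0 of the 9 genes and 0% of all genes. At an unadjusted p under 0.05 there were 2 of the 9 (CDH5 and VWF) beside 2.74% of all genes, and DESeq2 and limma-voom called 0 of the 9 beside 0.0687% and 0.0187% of all genes. With no filter on low counts edgeR still called 0 of the 9, beside 0.219% of all genes. EMCN had a log2 fold change of 1.60, while 8 of the other 9 had a negative one (median -0.37, against 0.0032 over all genes, of which 50.8% were positive). CDH5 was 2.13-fold lower in DHA oil, a log2 fold change of -1.09 (-2.11 to -0.074; edgeR adjusted p = 1.00). It was 1 of the 9 without overlap, as were 5.93% of all genes in the lower direction. Values of -0.71 (-1.74 to 0.33) for PECAM1, -0.40 (-0.99 to 0.19) for TIE1, -0.37 (-1.15 to 0.42) for KDR and -0.26 (-0.77 to 0.25) for TEK had intervals that include 0. For VWF the log2 fold change was -1.97 (-3.57 to -0.36), and -0.50 without control replicate 3.

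For fish oil against control edgeR again called 0 of the 9 genes, beside 0.00624% of all genes, and DESeq2 and limma-voom called 0 beside 0.125% and 0%. At an unadjusted p under 0.05 there were 0 of the 9, beside 3.48% of all genes. Without the filter edgeR called 0 of the 9, beside 0.215% of all genes. EMCN had a log2 fold change of 1.76 here. The other 9 were split, 3 positive and 6 negative, with a median of -0.021 against 0.0079 over all genes. Without fish oil replicate 2 their median was -0.29 and 2 were positive. Without fish oil replicates 2 and 4 it was -0.33, again with 2 positive. PECAM1 had the largest positive value of these 9, 0.83 (-0.10 to 1.77; edgeR adjusted p = 0.999). It was 0.23 without fish oil replicate 2, and it was -0.34 without fish oil replicates 2 and 4. TEK followed with 0.38 (-0.092 to 0.85).

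**Figure D2:**
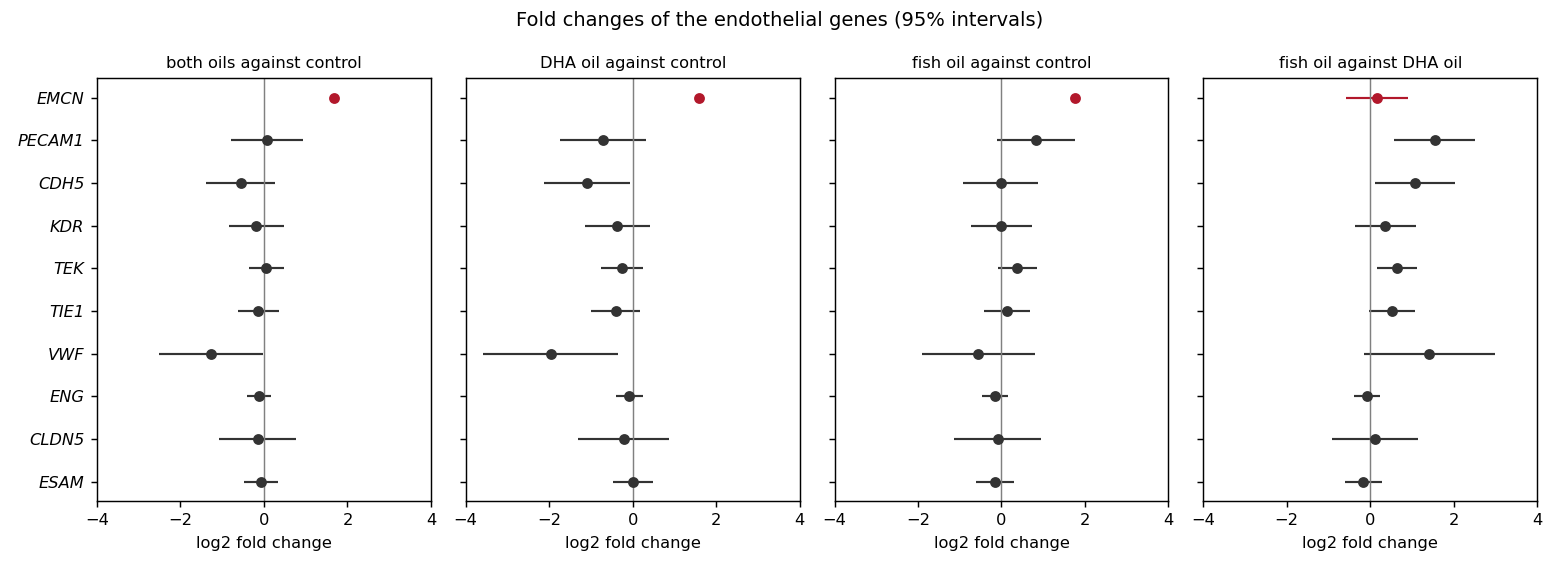
Log2 fold changes (horizontal axes) of the 10 genes in 4 comparisons, with 95% intervals from edgeR's quasi-likelihood fit of all 10 libraries; EMCN is in red, and in the first 3 panels its position follows from its choice and has no interval. EMCN lies at 1.68, 1.60 and 1.76 in the comparisons with control, where the medians of the other 9 genes were -0.14, -0.37 and -0.021, and near 0 between the oils, where 7 of those 9 lie above 0.

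Fish oil against DHA oil gave the reverse picture, with EMCN near even and several other markers on the higher side. Of the 9 genes 7 had a positive log2 fold change, with a median of 0.53, against 0.010 over all genes, of which 52.1% were positive. PECAM1 was 2.91-fold higher in fish oil, a log2 fold change of 1.54 (0.57 to 2.51). CDH5 had 1.07 (0.11 to 2.04), TEK 0.64 (0.16 to 1.11), TIE1 0.53 (-0.022 to 1.08) and VWF 1.42 (-0.14 to 2.98). TEK was 1 of the 9 without overlap, as were 2.87% of all genes in the higher direction, by the small margin of 13.45 to 13.36 CPM.

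None of these passed the adjusted threshold. edgeR called 0 of the 10 genes and 0% of all genes (adjusted p = 0.875 for PECAM1, CDH5, TEK, TIE1 and VWF), with 3 of the 10 at an unadjusted p under 0.05 beside 4.84% of all genes. DESeq2 and limma-voom also called 0 of the 10, beside 0.00624% and 0% of all genes. Without the filter edgeR called PECAM1 (adjusted p = 0.0151), beside 0.0538% of all genes. Without fish oil replicate 2 the median over the 9 genes was 0.25 and 5 were positive, with PECAM1 at 0.94 and CDH5 at 0.54. Without fish oil replicates 2 and 4 the median was 0.20 and 6 were positive. VWF then stood at 1.24, PECAM1 at 0.37, TEK at 0.32, TIE1 at 0.30 and CDH5 at -0.0083, and 0 of the 10 genes was at an unadjusted p under 0.05.

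Set against the other markers within each library, EMCN made up a larger share in most oil tumours. ENG was left out of this count because it held most of the reads. Of the reads of EMCN and the remaining 8 genes, EMCN took 1.72%, 1.69% and 1.54% in the controls. It took 4.83%, 7.69% and 7.09% in DHA oil and 6.54%, 1.36%, 6.70% and 7.18% in fish oil. Thus 6 of the 7 oil libraries lay above the highest control, and fish oil replicate 2 lay below the lowest. The 95% Wilson interval was 0.862% to 2.14% in fish oil replicate 2 and 0.989% to 2.99% in control replicate 1, and it was 3.24% to 7.15% in DHA oil replicate 1, the lowest of the other oil libraries. These intervals too cover counting error only, and they take reads as independent molecules, which reads are not. In fish oil replicate 2 the 8 genes summed to 134.7 CPM, against 44.6 to 88.2 CPM elsewhere, while EMCN was lowest among the oils. The share uses the EMCN levels that chose the gene and is a description.

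**Figure D3:**
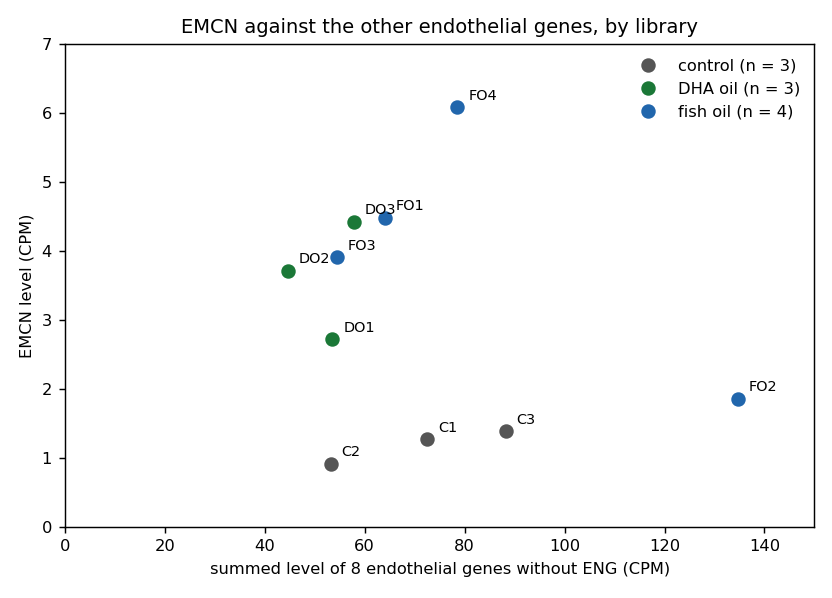
EMCN level (vertical axis, CPM) against the summed level of the 8 other endothelial genes without ENG (horizontal axis, CPM), one point per library, labelled C for control, DO for DHA oil and FO for fish oil with the replicate number. Apart from FO2, at 134.7 and 1.86 CPM, the oil libraries lie above the controls at similar sums.

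Whether EMCN rose and fell with the other markers from tumour to tumour can be asked within diets, a comparison its choice did not make. The choice rests on every oil library lying above every control, which may still have limited how far EMCN deviated within a diet. Log2 CPM was expressed as the deviation from the diet mean, and EMCN was permuted within diets (864 exact permutations, two-sided). Over 10 libraries 8 of the 9 genes had a negative Pearson r with EMCN and 1 a positive one, with a median of -0.30, against a median of 0.0083 over all 16012 other genes. By Spearman rho the tally was less one-sided, with 5 of the 9 negative and 4 positive and a median of -0.018. The lowest were KDR, with r = -0.78 and Spearman rho = -0.49 (exact permutation p = 0.0637 and 0.256), and CLDN5, with r = -0.69 and rho = -0.50 (exact permutation p = 0.0833 and 0.243). ENG was the positive one, with r = 0.31 and rho = 0.32 (exact permutation p = 0.534 and 0.469). None of the 9 had p under 0.05, against 2.56% of all genes, and no gene passed Benjamini-Hochberg adjustment over all genes, where 1.00 was the smallest adjusted value. Without the 2 libraries farthest from the median EMCN level, both of them controls, the median r was -0.52. Only 1 control was then left, which cannot deviate from its own mean, so this value rests on the oil libraries alone.

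Most of the signs of r rested on 1 library. Without fish oil replicate 2, which was singled out after its values were seen, 5 of the 9 r values were positive and the median was 0.27, against -0.0040 over all genes. PECAM1 then had r = 0.91 and rho = 0.92 with EMCN over 9 libraries (exact permutation p = 0.00463 for each, the smallest that 216 permutations can give; 0.998 after adjustment over all genes). With all 10 libraries PECAM1 had r = -0.26 and rho = 0.14 (exact permutation p = 0.730 and 0.722). CDH5 went from r = -0.30 to 0.71 (exact permutation p = 0.685 and 0.0648), and TIE1 from -0.40 to 0.56 (exact permutation p = 0.397 and 0.227). KDR, CLDN5 and VWF stayed negative, at -0.49, -0.39 and -0.18. Of the 9 genes 1 had an unadjusted p under 0.05 in the 9 libraries, against 3.77% of all genes.

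**Figure D4:**
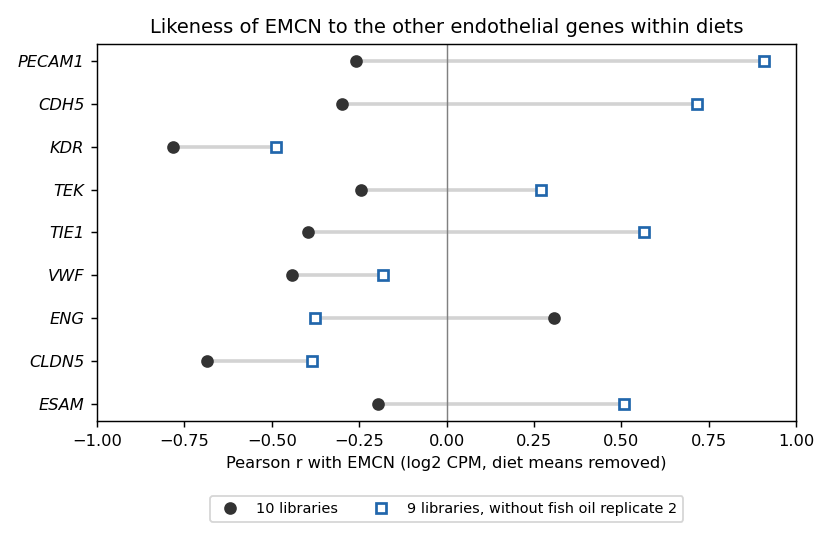
Pearson r with EMCN (horizontal axis) of the 9 other genes, from log2 CPM with diet means removed; filled circles use 10 libraries and open squares the 9 without fish oil replicate 2. PECAM1, CDH5, TEK, TIE1 and ESAM move from below to above 0 when that library is left out, ENG moves the other way, and KDR, VWF and CLDN5 stay below 0.

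Among the other 9 genes, 29 of 36 pairs had a positive within-diet r over the 10 libraries, with a median of 0.41. The median for EMCN with the 9 was -0.30, with 1 positive. PECAM1 and CDH5 formed the closest pair, with r = 0.96, and 0.93 without fish oil replicate 2. ENG had r = -0.69 to PECAM1 and -0.67 to ESAM, but -0.061 to KDR, -0.014 to VWF and 0.18 to CLDN5. With fish oil replicate 2 left out it had r = -0.48 to PECAM1 and -0.53 to ESAM, and 0.62 to KDR and 0.85 to CLDN5. Without fish oil replicate 2 the median of the 36 pairs was 0.20 and 27 were positive, against 0.27 for EMCN with the 9. Without fish oil replicates 2 and 4 the median of the 36 pairs was 0.27 and 31 were positive. For EMCN with the 9 it was then 0.031, with 5 positive. These pairs share libraries and scaling and are given as a description, and the differences between the medians were not tested.

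Among all genes tested, those with a within-diet pattern most like that of EMCN over the 10 libraries were ENSG00000139899 (r = 0.97) and ENSG00000119929 (r = 0.94), for which no name is given in the tables used here. Without fish oil replicate 2 they had r = 0.92 and 0.87. Their diet means did not follow EMCN, with 1.40, 1.16 and 0.968 CPM for ENSG00000139899 and 12.6, 11.3 and 14.8 CPM for ENSG00000119929 in control, DHA oil and fish oil. They were picked as the highest of 16012 values, so no test is attached.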

How the data were processed

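The values are raw counts, deposited as whole numbers for each human Ensembl gene and not normalised by the authors as far as the values show. GRCh38, STAR and HTSeq 0.9.0 are named per the submitters' processing notes, and libraries were stranded poly(A) mRNA read as single ends, per the labels' protocols. Which annotation and strand setting were used, how shared reads were treated and whether mouse reads were removed is not given in the sources used here, so overlapping or antisense genes are uncertain. Symbols of the 10 genes came with their identifiers, and no position is given because no human annotation was used here. Another 73 symbols in 6 lists (further endothelial genes, mural cells, red blood cells, leukocytes, skeletal muscle and angiogenic ligands) were matched to 0 identifiers, as the reference tables are of mouse, so markers of other cell types were not analysed here. The genes and lists were chosen with earlier results of these data known.

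filterByExpr (minimum count 10) left 16013 genes. All 10 genes passed, EMCN mainly through the oil libraries, where it is high. TMM-scaled counts were tested in R 4.3.3 with the quasi-likelihood F test of edgeR 4.0.16 (all 10 libraries, diet as the only factor, Benjamini-Hochberg adjustment over all genes, threshold 0.05). Intervals of log2 fold changes are 95% and use the absolute fold change divided by the square root of F as SE. Log2 CPM has a prior count of 2. Alternatives were RLE scaling, library totals, no filter and a strict filter (10 reads in every library), DESeq2 1.42.0 on the filtered genes, limma-voom with quality weights (limma 3.58.1), separate fits per pair of groups, a replicate block, and leaving libraries out. The rule for genes described singly took all 10, and at most 2 identifiers of the pattern most like EMCN. The edgeR fit and the permutation test were tested on simulated data. No pair of replicates agreed within sampling noise, and the labels give no batch.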

Additional observations from a re-analysis of the deposited data

Results flagged for a closer look

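Fish oil, with 4 libraries, was searched for a tumour far from the rest of its group. Of 14 measures of these genes 2 held such a tumour, both times fish oil replicate 2, where about 1 in 20 is flagged by chance. TIE1 there stood at 21.8 CPM, while the remaining fish oil tumours lay between 11.0 and 12.6 CPM (a gap of 0.850 of the whole range). EMCN took 1.36% of the reads of EMCN and 8 other endothelial genes, ENG left out, while it took 6.54% to 7.18% in the remaining fish oil tumours (a gap of 0.890 of the whole range). The measures share genes and are not independent.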

How the results depend on the processing

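EMCN was selected for being higher with the oils, so its fold changes against control are no support for that. Its calls there are left out. The count of called genes among the other 9 stayed at 0 in each comparison when single libraries were left out. It was 0 with other scaling factors, the strict filter (which removed EMCN, VWF and CLDN5), limma-voom, DESeq2 and fits of only the groups compared. Such settings called few of all genes too, so a count of 0 among the 9 is near the background. At most 35 of 16388 genes were called with 1 library left out, and 0 of 14064 with the strict filter. The count became 1 with no filter for fish oil against DHA oil (PECAM1, log2 fold change 1.53), beside 0.0538% of all genes. The log2 fold change of EMCN stayed between 1.48 and 1.80 for both oils, 1.43 and 1.76 for DHA oil and 1.46 and 2.01 for fish oil against control over all alternatives that kept it.

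Signs changed for values near 0 and for some larger ones. With all 10 libraries VWF was -1.26 for both oils, PECAM1 0.83 for fish oil against control and CDH5 1.07 between the oils. Each of these changed sign when libraries were left out. Between the oils EMCN was -0.054 in limma-voom and -0.15 with the replicate block. For both oils PECAM1 was -0.24 in limma-voom, -0.11 with the block and -0.52 without fish oil replicates 2 and 4, and TEK -0.033 in limma-voom and -0.10 without those replicates. Without them PECAM1 was -0.34 for fish oil against control and CDH5 -0.0083 between the oils. Leaving out 1 library gave -0.12 to 0.42 for EMCN between the oils and, for both oils, -0.24 to 0.32 for PECAM1, -0.035 to 0.16 for TEK, -1.70 to 0.21 for VWF, -0.82 to -0.23 for CDH5, -0.43 to 0.13 for CLDN5 and -0.26 to 0.16 for ESAM. The median within-diet r of EMCN with the 9 genes ran from -0.49 to 0.27, was 0.031 without fish oil replicates 2 and 4, and was -0.50 with the replicate block. The cause was not tested.

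Libraries of the same number did not pair. Deviations from the diet means correlated between -0.17 and 0.18 in 9 same-number pairs, and 1 was over 0.1. With the block edgeR called 0 of the 9 genes other than EMCN in each comparison, beside at most 12 of all 16013 genes. Fish oil replicate 4 is the only library of its number, so the block gave it a term of its own. All values given with the block therefore leave that library out in effect. Few reads limit EMCN (7 to 54 per library), CLDN5 (5 to 21) and VWF (8 to 94).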
